A study of Mus musculus with 6 samples.

Results

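The IFIT family and the ISG15 conjugation system were examined in B16F10 mouse melanoma cells depleted of OSGEP. The 9 genes were taken by their symbols from the 55487 genes of the count table: Ifit1, Ifit2, Ifit3, Ifit3b, Isg15, Uba7, Ube2l6, Herc6 and Usp18. All 9 of 9 had enough reads to be tested, among the 12669 genes that passed the filter on low counts. Control cells (shCtr) carried a scramble shRNA and OSGEP-depleted cells (shOSGEP) carried the hairpin that the labels number OSGEP#2, both delivered by lentivirus. The RNA of each group came from 3 separate infections, giving 3 libraries of polyA RNA per group, and the labels give the genotypes as wild type for shCtr and OSGEP knockdown for shOSGEP. OSGEP is the enzyme that places the t6A modification on tRNAs. Only this hairpin was sequenced, so an effect of the hairpin itself and an effect of OSGEP loss cannot be told apart in these libraries.

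Interferons bind their receptors and, through kinases and transcription factors such as IRF9, switch on a set of genes that slow the spread of viruses. IFIT proteins are among the most strongly induced products of this response. They bind RNA, IFIT1 in particular the ends of RNAs that lack the methyl groups of a mature host cap, and they act in complexes with one another. ISG15 is a small protein related to ubiquitin that is attached to other proteins by a chain of enzymes. UBA7 activates it, UBE2L6 carries it, in mice HERC6 joins it to its substrates, and USP18 removes it again and also dampens signalling from the interferon receptor. The study asked whether the sensing of RNA through RIG-I and the interferon response are raised in melanoma cells that lose OSGEP, and the comparison of shOSGEP with shCtr gives the mRNA side of this question for both systems.

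Interferon-stimulated genes share a promoter sequence, the interferon-stimulated response element, whose core was searched here as GAAANNGAA on both strands, so that it also appears as TTCNNTTTC. RefSeq promoter windows on GRCm38, each from 250 bases before to 50 bases after a transcript start, were available for 8 of the 9 genes, and Usp18 had none. The core was found in 4 of them, Ifit1, Ifit3, Ifit3b and Isg15, with 3 matches in each. It was found in 8.56% of all 32851 windows, and for 9.76% of the 27025 genes that have a window. Of the windows, 0.0639% held 3 or more matches, with overlapping matches counted separately. The stretches with the matches, and 20 bases on each side, are shown because Isg15 is the modifier itself and the other genes with matches are those whose groups did not overlap. They are written 5′ to 3′ on the strand of the gene, with the matches in capitals, and in Ifit1 and Isg15 neighbouring matches overlap.
Ifit1, chr19:34640760-34640833, + strand: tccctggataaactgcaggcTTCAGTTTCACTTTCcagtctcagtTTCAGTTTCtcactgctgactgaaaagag
Ifit3, chr19:34583354-34583455, + strand: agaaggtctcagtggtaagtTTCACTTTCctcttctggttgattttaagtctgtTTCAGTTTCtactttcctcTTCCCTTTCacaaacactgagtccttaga
Isg15, chr4:156200856-156200916, − strand: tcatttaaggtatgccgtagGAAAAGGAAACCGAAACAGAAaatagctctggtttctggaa

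The stretch of Ifit3b, at chr19:34607750-34607851 on the + strand, was letter for letter that of Ifit3. Over an alignment of 260 bases, the promoter windows of these nearby copies were 99.2% identical. Relative to the transcript start, the matches ran from position -109 to -76 in Ifit1, from -155 to -94 in Ifit3, from -187 to -126 in Ifit3b and from -78 to -58 in Isg15, counted to the last base of the last match. The windows of Ifit2 (2 windows), Uba7, Ube2l6 and Herc6 held no match to these letters.

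The libraries held between 18915587 and 29487384 estimated counts. Levels are CPM (counts relative to the size of the library, with TMM factors) in the order of replicates 1, 2 and 3, and 3 counts, the smallest amount treated as detected, correspond to 0.116 to 0.147 CPM. Osgep, the targeted gene, was at 20.6, 58.6 and 21.8 CPM in the controls and at 4.28, 0.542 and 5.52 CPM in shOSGEP, without overlap, with a Log2FC (shOSGEP minus shCtr) of -3.29 ± 0.876 (SE) and an unadjusted p = 0.00524. All 7 melanocyte markers were expressed, at summed levels of 17038 to 29599 CPM in shCtr and 3551 to 18083 CPM in shOSGEP. The leukocyte genes Ptprc, Cd3e, Adgre1 and Itgam were at 0 in every library, and the 6 leukocyte markers summed to 1.52 to 1.82 CPM in shCtr and 1.53 to 3.14 CPM in shOSGEP. The 4 fibroblast markers, of which Dcn was at 0, summed to 5.06 to 11.2 CPM in shCtr and 13.0 to 19.5 CPM in shOSGEP, and their part in the results below was not tested. Endothelial markers (Cdh5 and Kdr at 0) and keratinocyte markers did not exceed 0.310 CPM in sum. In RNA from whole cultures, fewer cells of a type and less RNA per cell cannot be told apart.

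The library of shCtr replicate 2 stood apart from the others. In shCtr replicate 2, genes of low GC content were depleted and genes of high GC content were over-represented, and GC content and transcript length accounted for 63.5% of the variance of its deviation from the mean library, against 50.9% and 54.0% in the replicate 1 libraries of shCtr and shOSGEP, 22.5% and 24.7% in those of replicate 3 and 17.6% in shOSGEP replicate 2. Its TMM factor was 0.690, against 1.04 to 1.14 in the others. Each result is therefore also given for same-numbered libraries, and where it matters without the replicate 2 libraries, of which that of shOSGEP held the highest values of several genes.

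Across the 9 genes, IFIT and ISG15-system mRNAs were more often higher in shOSGEP than lower. Ifit1 and Ifit3 rose past the threshold of the study (Log2FC beyond 0.5 with an unadjusted p under 0.05), as did 1.59% of all genes tested in that direction. Ifit1, Ifit3 and Ifit3b had no overlap between the groups, a pattern found in 3.49% of all genes in that direction. The largest Log2FC values belonged to Usp18 and Isg15, which also had the largest standard errors. Of the 9 genes, 8 had a Log2FC above 0 and their median was 1.05, against -0.03 over all genes tested. No gene of the 12669 (0%), and so none of the 9, passed an adjusted p of 0.05 in edgeR's quasi-likelihood test, in which 256 genes had an unadjusted p under 0.05. DESeq2 called 14 genes and limma-voom with sample quality weights called 3 genes at that adjusted threshold. The 13 genes that DESeq2 called higher were 0.103% of those tested, and none of the 9 was among them. Isg15 and Usp18 could not be, as DESeq2 gave them no p.

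**Figure D1:**
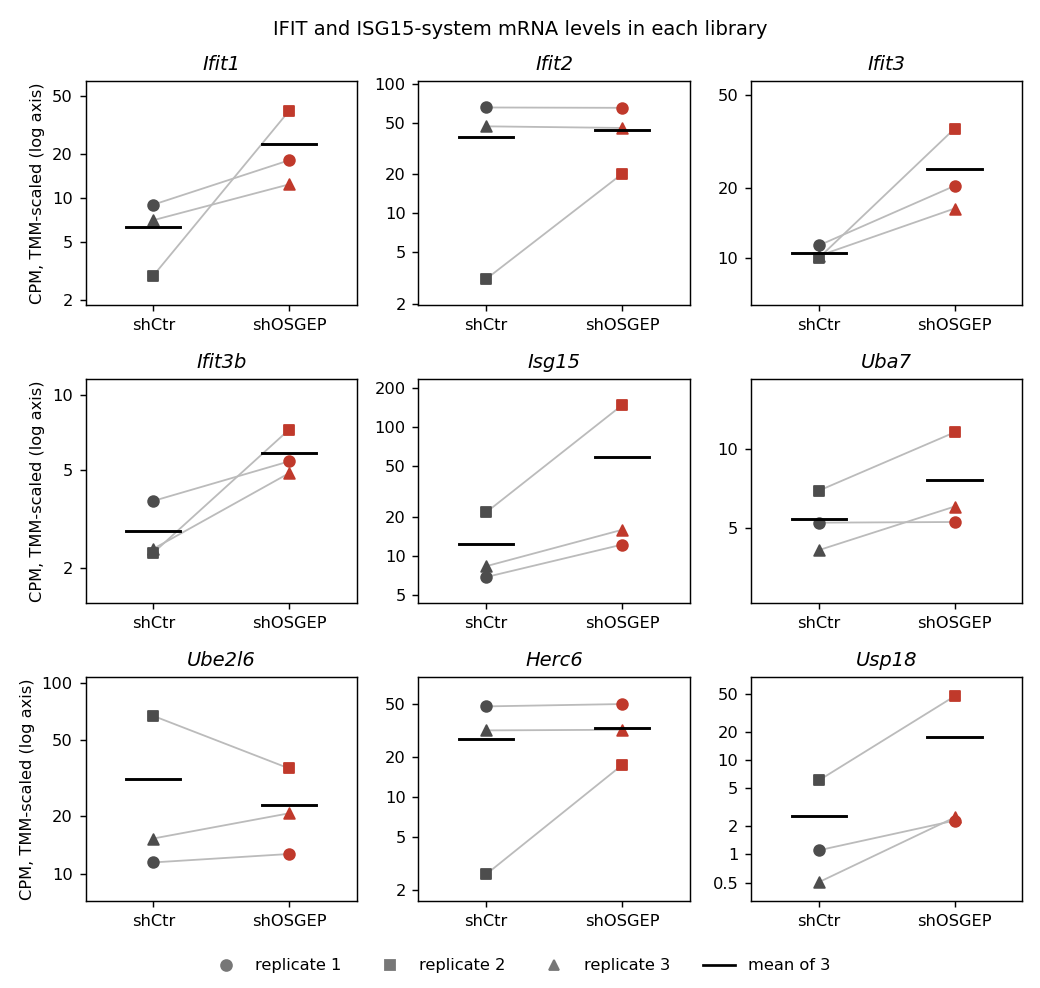
CPM after TMM scaling (log axis) of the 9 genes in each of the 6 libraries, with circles, squares and triangles for replicates 1, 2 and 3, a line joining libraries of the same number and a bar at the mean of 3. The shOSGEP points of Ifit1, Ifit3 and Ifit3b all lie above their shCtr points, while shOSGEP replicate 2 stands far above the rest for Isg15 (146 CPM) and Usp18 (47.5 CPM).

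The IFIT genes lie in a cluster on chromosome 19 of GRCm38. Ifit1 (ENSMUSG00000034459, 34640871 to 34650009, + strand) encodes the cap-binding member of the family. It was at 9.01, 2.95 and 7.06 CPM in the controls and at 18.1, 39.4 and 12.4 CPM in shOSGEP, or 6.34 ± 3.09 and 23.3 ± 14.2 CPM (SD, n = 3). The lowest shOSGEP library was above the highest shCtr library, and the replicate 2 libraries were both the lowest of shCtr and the highest of shOSGEP. Its Log2FC was 1.88 ± 0.634 (SE), a 3.67-fold difference, with an unadjusted p = 0.0175 and an adjusted p = 1.00. The exact permutation test (two-sided, on the mean of log2 CPM) gave p = 0.1, the smallest that 3 libraries against 3 can give. The log2 ratios of same-numbered libraries were 1.00, 3.70 and 0.80, so the mRNA was about as much higher in replicates 1 and 3, and more so in replicate 2. Without shOSGEP replicate 2 the Log2FC was 1.27 and no longer passed the threshold (unadjusted p = 0.0736).

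Ifit3 (ENSMUSG00000074896, 34583531 to 34588731, + strand) encodes a member known in human cells to stabilise IFIT1. It had the tightest control values of the 9 genes. In shCtr it was at 11.3, 10.0 and 10.2 CPM, and in shOSGEP at 20.4, 36.0 and 16.3 CPM, or 10.5 ± 0.707 and 24.2 ± 10.4 CPM (SD, n = 3). The groups did not overlap. The Log2FC was 1.20 ± 0.464 (SE), a 2.30-fold difference, with an unadjusted p = 0.0313, an adjusted p = 1.00 and an exact permutation p = 0.1. Same-numbered libraries differed by 0.84, 1.83 and 0.67 on the log2 scale, all upwards. Leaving out any of shCtr replicate 1, shCtr replicate 3, shOSGEP replicate 1 or shOSGEP replicate 2 moved Ifit3 below the threshold, with Log2FC values of 1.26, 1.18, 1.31 and 0.82.

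Ifit3b (ENSMUSG00000062488, 34607970 to 34613401, + strand) is a close copy of Ifit3. It was at 3.74, 2.31 and 2.40 CPM in the controls and at 5.40, 7.25 and 4.84 CPM in shOSGEP, again without overlap. Its Log2FC of 1.05 ± 0.503 (SE) had an unadjusted p = 0.0696 and an exact permutation p = 0.1, and same-numbered ratios were 0.52, 1.61 and 0.99. With the replicate number as a block the Log2FC was 1.06 ± 0.409 (SE) and passed the threshold (unadjusted p = 0.0447, adjusted p = 0.741). The transcripts of Ifit3 and Ifit3b were 98.0% identical over 1697 aligned bases. Of all stretches of 31 bases, 61.8% of those in Ifit3 also occur in Ifit3b, and 54.1% of those in Ifit3b also occur in Ifit3. The reads are longer than 31 bases, so these are not the shares of reads that fit both copies. A read pair that lies wholly in sequence common to both cannot be placed, and how many did was not measured. The division of counts between the copies is uncertain to that extent. The ratio of Ifit3 counts to Ifit3b counts ran from 3.03 to 4.34 in shCtr and from 3.38 to 4.96 in shOSGEP, with overlap between the groups.

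Ifit2 (ENSMUSG00000045932, 34550694 to 34576419, + strand) encodes a member that joins the other IFIT proteins in complexes. It behaved differently from its neighbours. It was at 65.3, 3.10 and 46.7 CPM in the controls and at 64.9, 19.995 and 45.4 CPM in shOSGEP. Replicates 1 and 3 were nearly level between the groups (log2 ratios of -0.01 and -0.04), and the replicate 2 libraries were the lowest of each group, with a ratio of 2.66 between them. The Log2FC of 0.18 ± 0.914 (SE) did not pass (unadjusted p = 0.850, exact permutation p = 0.9). It was -0.37 when shCtr replicate 2 was left out, -0.23 when shOSGEP replicate 1 was left out and -0.02 when both replicate 2 libraries were, so it has no firm direction here. Of its stretches of 31 bases, 0 occur in the transcripts of another gene.

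Isg15 (ENSMUSG00000035692, chromosome 4, 156199424 to 156200818, − strand) encodes the ubiquitin-like modifier. It was at 6.84, 21.7 and 8.30 CPM in the controls and at 12.2, 146 and 15.9 CPM in shOSGEP, or 12.3 ± 8.18 and 58.1 ± 76.3 CPM (SD, n = 3). Both groups had their highest value in replicate 2, and the groups overlapped because shCtr replicate 2 lay above shOSGEP replicates 1 and 3. The Log2FC was 2.24 ± 1.00 (SE), a 4.73-fold difference, which missed the threshold (unadjusted p = 0.0546, exact permutation p = 0.3). Within numbers the ratios were 0.83, 2.75 and 0.93, higher in shOSGEP in 3 of 3. With the replicate number as a block the Log2FC was 1.50 ± 0.486 (SE) and passed the threshold (unadjusted p = 0.0241, adjusted p = 0.741). The size rests on 1 library: without shOSGEP replicate 2 it was 0.22 (unadjusted p = 0.730), and without both replicate 2 libraries it was 0.89 (unadjusted p = 0.0325). DESeq2 gave no p for Isg15 or for Usp18. A processed pseudogene, AC151275.1, holds 10.2% of the 31-base stretches of Isg15. How many reads fit both was not measured, so part of the Isg15 counts may be uncertain.

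The conjugating enzymes did not pass the threshold. Uba7 (ENSMUSG00000032596, chromosome 9, 107975505 to 107984060, + strand), the activating enzyme, was at 5.23, 6.93 and 4.10 CPM in the controls and at 5.26, 11.6 and 6.02 CPM in shOSGEP. Only shOSGEP replicate 2 lay above every control library, and the Log2FC was 0.49 ± 0.523 (SE, unadjusted p = 0.373). Same-numbered ratios were 0.01, 0.73 and 0.54.

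Ube2l6 (ENSMUSG00000027078, chromosome 2, 84798828 to 84810335, + strand), the carrier enzyme, was the only one of the 9 with a Log2FC below 0, at -0.44 ± 0.740 (SE, unadjusted p = 0.566). It was at 11.5, 67.2 and 15.3 CPM in the controls and at 12.7, 35.6 and 20.7 CPM in shOSGEP, so the sign came from shCtr replicate 2. Ratios of same-numbered libraries were 0.15, -0.91 and 0.44, and without shCtr replicate 2 the Log2FC was 0.78. Of its 31-base stretches, 15.5% occur in other genes, 9.68% in Gm17167. The direction of Ube2l6 is thus not settled by these libraries.

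Herc6 (ENSMUSG00000029798, chromosome 6, 57581000 to 57664632, + strand), the ligase, followed Ifit2. It was at 48.0, 2.61 and 31.6 CPM in the controls and at 49.97, 17.3 and 32.0 CPM in shOSGEP. Replicates 1 and 3 were level between the groups (log2 ratios of 0.06 and 0.02), and replicate 2 gave a ratio of 2.69. The Log2FC was 0.27 ± 0.879 (SE, unadjusted p = 0.765) and turned to -0.27 without shCtr replicate 2. The gene Gm45193 covers 1269 of the exon bases of Herc6 on the same strand, so part of its counts could belong to either.

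Usp18 (ENSMUSG00000030107, chromosome 6, 121245906 to 121270917, + strand), the protease that takes ISG15 off, had the largest Log2FC of the 9 and the lowest count in any library, 11 in shCtr replicate 3. It was at 1.10, 6.10 and 0.507 CPM in the controls, from 26, 124 and 11 counts, and at 2.28, 47.5 and 2.46 CPM in shOSGEP, from 49, 1227 and 58 counts. As for Isg15, both groups had their highest value in replicate 2, and the groups overlapped. The Log2FC was 2.76 ± 1.39 (SE, unadjusted p = 0.0799, exact permutation p = 0.4). Each same-numbered shOSGEP library was nevertheless higher, by 0.99, 2.95 and 2.10 on the log2 scale. With the replicate block the Log2FC was 2.13 ± 0.501 (SE) with an unadjusted p = 0.00648 and an adjusted p = 0.741. It was -0.08 once shOSGEP replicate 2 was left out, 4.42 once shCtr replicate 2 was left out and 1.55 with neither (unadjusted p = 0.0422). The lincRNA gene Gm44148 overlaps 124 exon bases of Usp18 on the opposite strand, and the library kit was not stated to keep the strand.

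**Figure D2:**
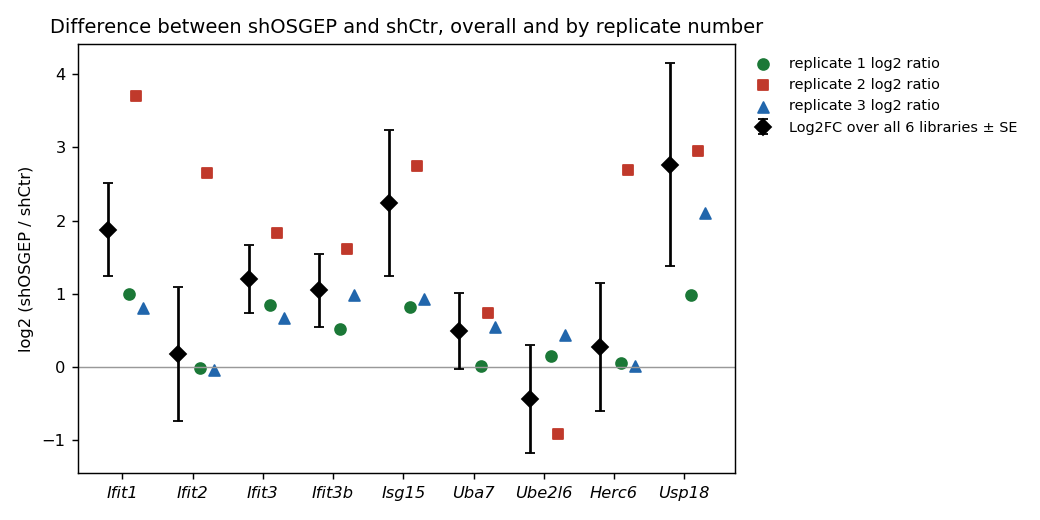
Log2 ratio of shOSGEP to shCtr for each of the 9 genes, with the Log2FC over all 6 libraries ± SE (diamonds) and the ratio of the libraries of replicate 1 (circles), 2 (squares) and 3 (triangles). Replicate 2 gives the highest ratio for every gene but Ube2l6, where it gives the lowest (-0.91), and for Ifit2 and Herc6 replicates 1 and 3 lie between -0.04 and 0.06.

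Read within replicate numbers, 7 of the 9 genes were higher in shOSGEP in 3 of 3 comparisons, against 17.6% of all genes, and the exceptions were Ifit2 and Ube2l6. For Uba7 and Herc6 some of these ratios were close to 0, with 0.01 as the smallest. In each number 8 of the 9 genes were higher, where 46.7%, 52.4% and 48.3% of all genes were, with median log2 ratios of 0.52, 2.66 and 0.67 in replicates 1, 2 and 3. Over all genes the medians were -0.03, 0.11 and -0.01. The replicate block, which compares libraries of the same number, brought Ifit1 (Log2FC 1.78), Ifit3 (1.12), Ifit3b (1.06), Isg15 and Usp18 past the threshold of the study, 5 of the 9 genes, where 2.32% of all genes passed in that direction. The adjusted p was 0.741 for each of the 5. With limma-voom, sample quality weights and the replicate block, the same 5 genes passed an adjusted p of 0.05, with Log2FC values of 1.00 for Ifit1 (adjusted p = 2.29e-06), 0.82 for Ifit3 (adjusted p = 9.57e-05), 0.67 for Ifit3b (adjusted p = 0.0270), 0.92 for Isg15 (adjusted p = 3.74e-05) and 1.42 for Usp18 (adjusted p = 3.15e-05). That fit called 6.73% of all genes higher, where the edgeR fit with the block called 0 genes at that adjusted p. It estimates library weights as well as the block from only 6 libraries, so its small adjusted p values are not firm. Without both replicate 2 libraries, Ifit1, Ifit3, Isg15 and Usp18 passed the threshold of the study, where 1.26% of all genes passed in that direction, with Log2FC values of 0.92, 0.77, 0.89 and 1.55. Ifit2, Uba7, Ube2l6 and Herc6 passed in none of these fits.

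**Figure D3:**
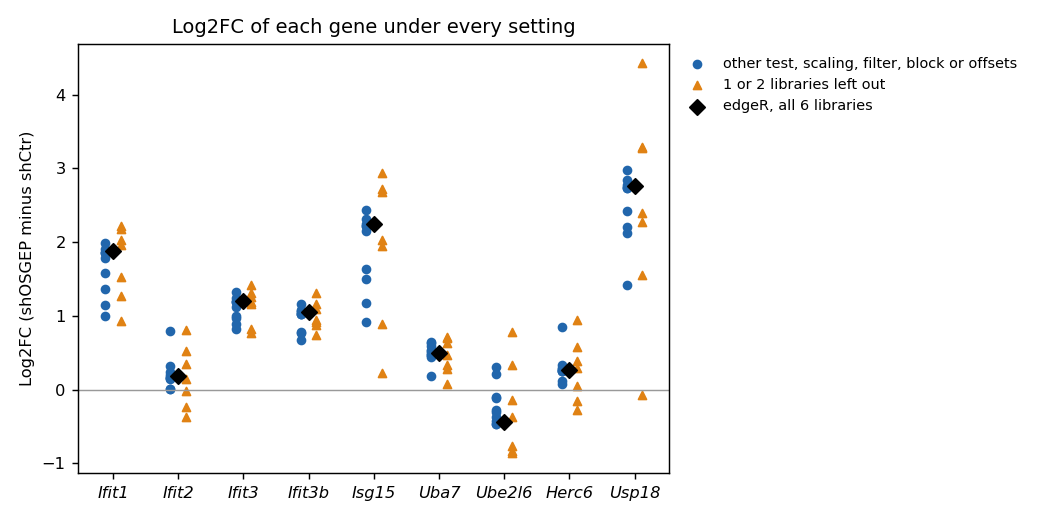
Log2FC (shOSGEP minus shCtr) of each of the 9 genes in edgeR with all 6 libraries (diamonds), with another test, scaling, filter, block or offsets (circles) and with 1 or 2 libraries left out (triangles). Ifit1, Ifit3 and Ifit3b stay at or above 0.67 throughout, Isg15 runs from 0.22 to 2.94 and Usp18 from -0.08 to 4.42, and Ifit2, Ube2l6 and Herc6 fall on both sides of 0.

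The deviation of the replicate 2 libraries moved with GC content, and the 9 genes span a wide range of it. Their longest transcripts ran from 39.4% GC in Herc6 and 42.0% in Ifit2 to 52.8% in Isg15 and 54.8% in Uba7. In shCtr replicate 2, Ifit2 and Herc6 deviated by -4.12 and -3.86 log2 units from the mean of the other control libraries. Isg15, Ube2l6 and Usp18 were 1.51, 2.33 and 2.88 units above it. Over all genes the median deviation of that library ran from -3.36 at 35% to 37.5% GC to 1.67 at 62.5% to 65% GC. The fitted trend on GC content and length, relative to the gene's mean over all libraries, was -1.72 for Ifit2 and -2.29 for Herc6 in that library. In shCtr replicates 1 and 3 it was 0.79 and 0.13 for Ifit2 and 1.11 and 0.26 for Herc6. Its baseline differs from that of the deviations above, so the values are not shares of them.

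Removing this trend narrowed the spread of the controls for some genes. Isg15 then stood at 9.21, 10.9 and 10.6 CPM in the controls and at 18.0, 99.5 and 18.2 CPM in shOSGEP, with no overlap between the groups. Ifit1, Ifit3, Ifit3b and Isg15 then had no overlap, a pattern found in 6.46% of all genes in that direction. Ifit1 stood at 5.95, 7.22 and 7.11 CPM in the controls and at 11.9, 35.7 and 12.7 CPM in shOSGEP. The control libraries of both genes then lay close together, and shOSGEP replicate 2 still lay far above the other shOSGEP libraries. Ifit2 stood at 37.8, 10.2 and 42.6 CPM in the controls and at 36.7, 21.5 and 43.0 CPM in shOSGEP, and its replicate 2 libraries remained the lowest of each group. With these offsets and the replicate block, Ifit1, Ifit3, Ifit3b, Isg15 and Usp18 passed the threshold of the study, where 3.88% of all genes passed in that direction, and their adjusted p was 0.532.

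**Figure D4:**
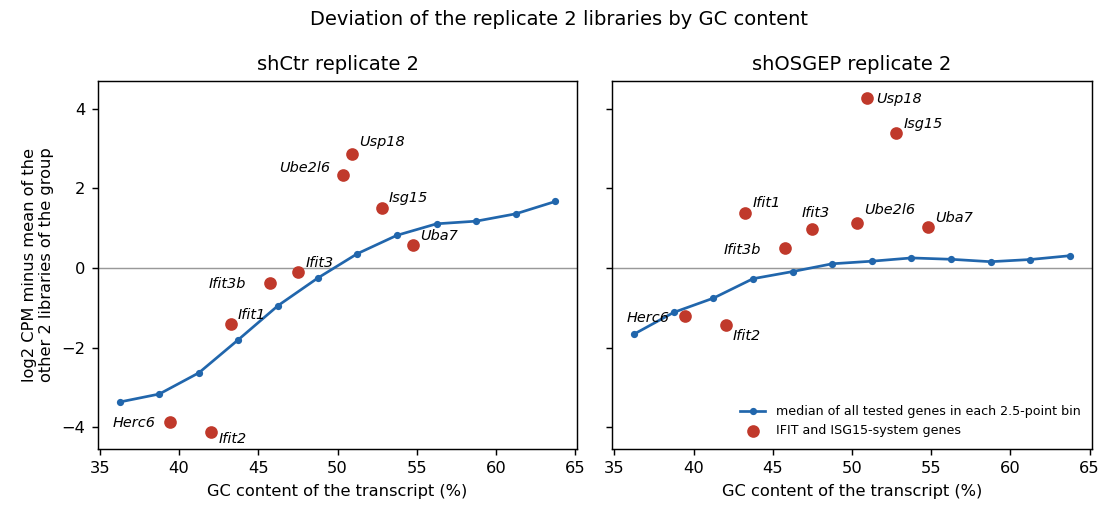
Deviation of the replicate 2 libraries of shCtr (left) and shOSGEP (right) from the mean of the other 2 libraries of their group, in log2 CPM, against transcript GC content in percent, for the 9 genes (red) and as the median of all tested genes in bins of 2.5 points (blue). In shCtr replicate 2 the genes of low GC content, such as Ifit2 (-4.12), lie low and those of higher GC content lie high, Usp18 (2.88) and Ube2l6 (2.33) well above the line (median 0.36 at 50% to 52.5% GC), and in shOSGEP replicate 2 Isg15 (3.39) and Usp18 (4.28) stand far above a flatter line.

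The 9 genes fell into groups by their profile over the 6 libraries. As a description, Pearson's r of log2 CPM was 0.998 between Ifit2 and Herc6, 0.968 between Isg15 and Usp18, 0.989 between Uba7 and Usp18, and 0.930 to 0.943 among Ifit1, Ifit3 and Ifit3b. Ifit2 and Ube2l6 ran opposite to each other (r = -0.96). These levels keep the GC trend, and the 6 points share the differences in composition described above. Ifit2 and Herc6 had the lowest GC content of the 9 genes (42.0% and 39.4%). Uba7, Isg15, Usp18 and Ube2l6 had the highest (54.8%, 52.8%, 50.9% and 50.3%). Whether the groups remain without the trend was not tested. The 5 other genes, with a mean of at least 50 counts, whose profile was most like the mean profile of the 9 (r over 6 libraries) were Arl4a (0.995), Prx (0.995), Oma1 (0.994), Atf4 (0.993) and Kctd6 (0.988). That mean profile, in standardised units, was 1.12 in shOSGEP replicate 2, against 0.159 and 0.109 in shOSGEP replicates 1 and 3. The 5 are the top of a ranking over all such genes on 6 points, and how high r would reach without any link was not tested.

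Levels were also compared per kilobase of transcript. In shCtr, Ube2l6 (mean 20.1 RPKM, range 7.35 to 43.0) and Isg15 (16.2, range 9.05 to 28.7) were highest, followed by Ifit2 (10.1), Ifit3 (6.04), Herc6 (5.75), Ifit1 (2.39), Uba7 (1.70), Usp18 (1.45) and Ifit3b (1.41). The ranges of every pair of neighbours in this order overlapped. In shOSGEP, Isg15 was highest (mean 76.8 RPKM, range 16.1 to 193), followed by Ube2l6 (14.8), Ifit3 (13.9), Ifit2 (11.4), Usp18 (9.84), Ifit1 (8.77), Herc6 (6.94), Ifit3b (2.91) and Uba7 (2.39). Here too neighbours overlapped, except Herc6 and Ifit3b, whose nearest libraries were at 3.63 and 3.62 RPKM. The order rested in part on the replicate 2 libraries. Without them, Ifit2 led in shCtr (mean 14.7 RPKM), ahead of Isg15 (10.0) and Ube2l6 (8.58), and in shOSGEP Isg15 (18.6) led ahead of Ifit2 (14.4) and Ube2l6 (10.7).

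The genes that lead to and surround these systems were taken from 3 lists. Of 15 genes of RNA sensing and interferon signalling, 14 were tested, 11 had a Log2FC above 0 and 2 rose past the threshold of the study, with a list median of 0.26 against -0.03 over all genes. These were Ddx58, which encodes the RNA sensor RIG-I, and Dhx58, which encodes its relative LGP2. Ddx58 was at 12.3, 12.3 and 15.3 CPM in the controls and at 28.8, 79.0 and 23.9 CPM in shOSGEP (Log2FC 1.72 ± 0.554 SE, unadjusted p = 0.0139). Dhx58 was at 2.85, 3.44 and 2.31 CPM in the controls and at 5.58, 39.1 and 6.32 CPM in shOSGEP (Log2FC 2.57 ± 0.828 SE, unadjusted p = 0.0140). Neither overlapped between the groups, nor did Ifih1, and replicate 2 was the highest shOSGEP library of Ddx58 and Dhx58, as for Ifit1, Isg15 and Usp18. Irf9, a transcription factor of the interferon response, had the next smallest p (Log2FC 1.54 ± 0.816 SE, unadjusted p = 0.0951). The adjusted p of all 3 was 1.00. With the replicate block 5 of the 14 passed the threshold, where 2.32% of all genes did in that direction. These were Ddx58 (Log2FC 1.51), Dhx58 (1.96), Irf9 (1.39), Irf7 (1.82) and Ifih1 (1.24), each with an adjusted p = 0.741. Irf7 was near the floor in shCtr replicates 1 and 3 (0.170 and 0.138 CPM), and its groups overlapped. Without both replicate 2 libraries, Irf7 (unadjusted p = 0.0656) and Ifih1 (unadjusted p = 0.0754) did not pass in edgeR, while Ddx58, Dhx58 and Irf9 did. Ifnb1, the gene of interferon beta, had no count in any of the 6 libraries.

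Of 12 ubiquitin-pathway counterparts and ISG15 partners, 9 were tested, 3 had a Log2FC above 0 and none passed the threshold, with a median of -0.15. The smallest p belonged to Usp5, a ubiquitin protease (Log2FC -0.89 ± 0.632 SE, unadjusted p = 0.197), Usp21, another ubiquitin protease (Log2FC -0.43 ± 0.432 SE, unadjusted p = 0.347), and Skp2, a subunit of a ubiquitin ligase (Log2FC -0.51 ± 0.530 SE, unadjusted p = 0.364). Of 8 IFIT relatives, cap methyltransferases and eIF3 subunits, 6 were tested, 3 had a Log2FC above 0 and none passed, with a median of 0.03. The smallest p belonged to Eif3e (Log2FC 0.48 ± 0.525 SE, unadjusted p = 0.389), and Cmtr2 (0.21) and Rnmt (-0.23) followed. The IFIT relatives Ifit1bl1 and Ifit1bl2, which lie between the IFIT genes on the − strand, had too few reads to be tested. Ifit1bl2 shares 9.16% of the 31-base stretches of Ifit1.

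**Figure D5:**
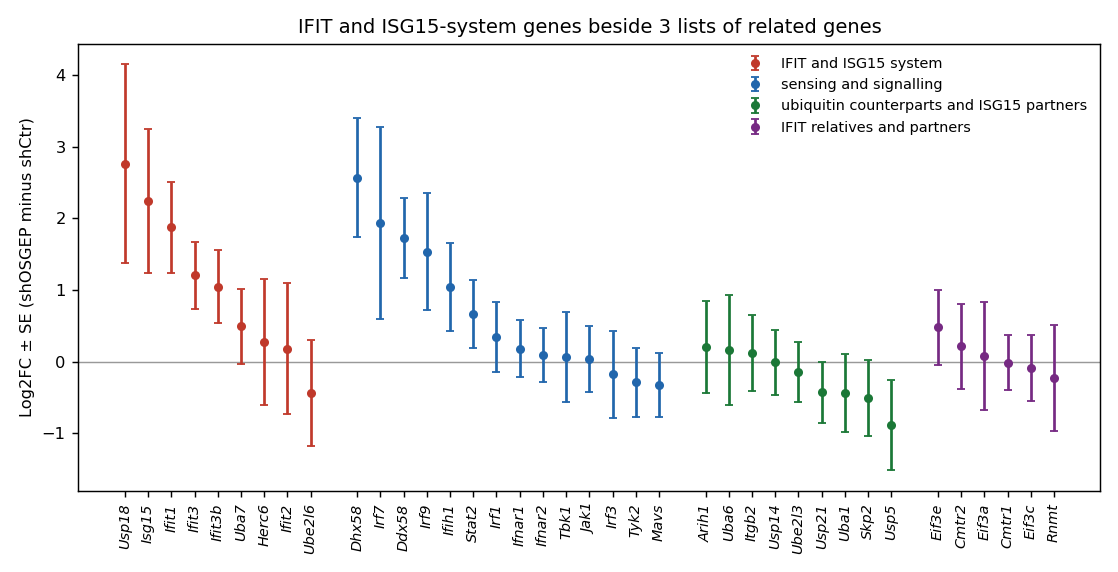
Log2FC ± SE (shOSGEP minus shCtr, edgeR, all 6 libraries) of the 9 IFIT and ISG15-system genes (red) and of the tested genes of the 3 lists, ordered by size within each. The sensing and signalling list (blue) runs from 2.57 for Dhx58 downwards, and the ubiquitin counterparts (green) and IFIT relatives and partners (purple) lie around 0.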

How the data were processed

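Libraries were prepared from polyA RNA of B16F10 cells with the Illumina TruSeq V2 kit and sequenced in pairs. The authors aligned reads to GRCm38 with STAR 2.6.1d and counted them per gene with Salmon 1.4.0, within nf-core/rnaseq. The deposited values are estimated counts per gene, written as whole numbers, not normalised or filtered, with 1 column per library. The annotation release was not given in the sources used here. Salmon divides reads that fit several transcripts by likelihood, so near-identical copies carry uncertain values.

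Groups and replicate numbers came from the labels, and the 3 libraries of a group came from separate infections. Genes were kept by filterByExpr (minimum count 10, minimum total 15), scaled by TMM and tested two-sided with edgeR 4.0.16 (quasi-likelihood, no block, R 4.3.3), with Benjamini-Hochberg adjustment over 12669 genes. SE is the Log2FC divided by the square root of F. The test was tried on simulated data that varied less between libraries than these and held no GC trend. How it performs on libraries like these was therefore not tested. Depth was 18915587 to 29487384 counts, and the floor of 3 counts covers counting error only.

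Alternatives were DESeq2 1.42.0, limma-voom 3.58.1 with sample quality weights, scaling by RLE or the upper quartile, other filters, a replicate block, offsets for GC content and length (natural splines with 5 degrees of freedom each, prior count 2, longest GENCODE M21 transcript), and libraries left out. Deviations from the group means of same-numbered libraries correlated at 0.811, 0.557 and 0.196 across genes for replicates 1, 2 and 3, all above 0.1, so the number was treated as pairing them. The highest value between different numbers was 0.491, for shCtr replicate 3 with shOSGEP replicate 1, above the 0.196 of replicate 3. The pairing of replicate 3 is thus not settled by these values, and the fits with the block rest on it. The library names share an ending within each number, in replicate 3 as in the others, but what a number marks is not stated.

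The genes, lists, motif and alternatives were chosen with earlier results of these data known. Named genes were Osgep, the 9 genes, up to 3 genes per list with the smallest p, and the 5 genes nearest in profile. A gene of the sensing and signalling list is not reported here and is left out of its counts. Other genes named (Ifih1, Irf7, Ifnb1, overlapping and neighbouring genes) were chosen after their values were seen.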

Additional observations from a re-analysis of the deposited data

How the results depend on the processing

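Every alternative was run. At an adjusted p of 0.05, DESeq2 called 14 genes, limma-voom with sample quality weights 3 and limma-voom with the replicate block 1403, against 0 in edgeR and in the other settings. Genes past the threshold of the study numbered 256 in edgeR, 560 with limma-voom, 599 without a filter, 695 with GC and length offsets, 865 with offsets and the replicate block, 1442 with limma-voom and the block, and 67 (without shOSGEP replicate 2) to 453 (without shCtr replicate 1) with 1 library left out. Of the 9 genes, 2 passed that threshold in edgeR, 4 without a filter or with at least 10 counts in every library, 5 with limma-voom, the replicate block, or either combined fit with the block, 4 without both replicate 2 libraries, and 0 (without shOSGEP replicate 2) to 4 with 1 library left out, with 1 (Ifit1) without shCtr replicate 1 or 3. All of these rose. Over all genes, such rises numbered 202 of 12669 in edgeR, 430 of 21821 without a filter and 168 of 11376 with the stricter filter. They numbered 424 with limma-voom, 294 with the block, 491 with offsets and the block and 945 with limma-voom and the block, each of 12669. Without both replicate 2 libraries they numbered 162 of 12857. With 1 library left out they ran from 54 of 12972 (without shOSGEP replicate 2) to 274 of 13105. Genes of the 9 without overlap numbered 3 (3.49% of all genes in that direction), 4 with GC and length offsets (6.46%), 3 to 5 with 1 library left out (4.83% to 10.7%, and 8.25% where it was 5, without shCtr replicate 2) and 6 without both replicate 2 libraries (9.9%), so fewer libraries also left more of all genes without overlap in these settings. The sign turned for Ube2l6 with limma-voom (0.31), with limma-voom and the block (0.21) and without both replicate 2 libraries (0.33), and for Ifit2 in the last (-0.022). With 1 library left out, the Log2FC ran from -0.87 to 0.78 for Ube2l6, from -0.37 to 0.80 for Ifit2, from -0.27 to 0.95 for Herc6 and from -0.076 to 4.42 for Usp18. The cause was not tested. Among the 9 genes and Osgep, the replicate block changed no call beyond those of Ifit3b, Isg15 and Usp18. Upper-quartile scaling moved the median of all genes from -0.03 to 0.07. Precision is limited for Usp18, with 11 counts in its lowest library.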

Other observations

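Values within 1 library do not depend on how libraries are scaled, and some pairs of genes were compared that way after their values had been seen. The log2 level of Ifit1 relative to Ifit2, both in the IFIT cluster of chromosome 19 and of similar GC content, was -2.85, -0.07 and -2.71 in shCtr and -1.84, 0.97 and -1.87 in shOSGEP. The difference between same-numbered libraries was 1.01, 1.04 and 0.85. Replicate 2 stood above replicates 1 and 3 in both groups, yet the step between the groups was much alike in the 3 numbers. The level of Isg15 relative to its carrier enzyme Ube2l6 was higher in shOSGEP by 0.68, 3.66 and 0.49 in the 3 numbers, and relative to the ligase Herc6 by 0.77, 0.06 and 0.91. The level of Ifit3 relative to Ifit2 differed by 0.85, -0.82 and 0.71, so replicate 2 went the other way before the GC trend was removed. Ifit3 and Ifit2 differ in GC content (47.5% and 42.0%), as do Isg15 and Herc6 (52.8% and 39.4%), and these within-library ratios keep the GC trend. With the trend removed, replicate 2 stood at 11.2 (shCtr) and 27.9 CPM (shOSGEP) for Ifit3. For Ifit2 it stood at 10.2 and 21.5 CPM, so the sign in replicate 2 depends on the trend.

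Interferon genes themselves were almost without reads. Of 21 interferon genes in the table, a set chosen after the values were seen, 20 had no count in any of the 6 libraries, and the largest count of the remaining gene, Ifnz, was 3, in shOSGEP replicate 3, which is at the floor of 3 counts. Absence of interferon mRNA from the cells is not shown by these counts.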
